A study of Mus musculus with 9 samples.

Results

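Interferon-stimulated genes are the genes that cells switch on when they sense an interferon, and 38 of them, named from general knowledge of the response, were followed here through 3 immune cell types of the mouse. A single-symbol probe set was found for 36 of the 38 genes among the 18193 genes of the array. Of these, 34 were bright enough to be tested, among 10916 genes tested in all. Isg15, the ubiquitin-like modifier of the response, was covered by a probe set that lists several symbols, and Ifi44 by none with a single symbol, so both were not analysed here. Oasl2 and Mx2 had mean levels below the level filter and are described without a test. The cells were IKDC, short for interferon-producing killer dendritic cells, a population named for features of both other types, CDC (conventional dendritic cells) and NK (natural killer cells). All were sorted from spleen and lymph node of naive BALB/c mice aged 6 to 8 weeks. Each cell type from spleen had 2 arrays and each from lymph node had 1, so that 6 groups shared 9 arrays. The labels say neither which animals nor how many went into an array, and they give no gate for the sorts. The p-values therefore measure the spread between these arrays, which may in part be technical.

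Type I interferons act through the receptor made of Ifnar1 and Ifnar2, whose kinases Jak1 and Tyk2 lead to a complex with Stat2 and Irf9 that binds the interferon-stimulated response element (ISRE). Interferon gamma acts through Ifngr1 and Ifngr2 with the kinases Jak1 and Jak2, and many of its target genes carry a gamma-activated site (GAS). NK cells are a main source of interferon gamma, and the guanylate-binding proteins and immunity-related GTPases respond to it strongly, whereas the OAS, MX and IFIT families are classed with the type I response.

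The response is read from short elements near the start sites, so stretches from 6 promoters are shown, 3 of them from members called against CDC. Gbp2 and Gbp3 were higher in NK and IKDC than in CDC, and Stat2 was lower in NK. Irgm1 was higher in lymph node than in spleen in all 3 cell types, which passed only in alternative fits. Ifit1 and Rsad2 varied between replicate arrays. Promoters from 250 bases before to 50 bases after the start site were available from RefSeq (GRCm38.p6) for 29 of the 38 listed genes. Oas2, Mx1, Dhx58 and Usp18, which were called against CDC, had no entry. Capitals mark each whole match to the ISRE core, GAAA, any 2 bases and GAAA again, on either strand, and every sequence runs 5′ to 3′ on the strand of its gene and ends at or before the start site.
Gbp2, chr3:142620579-142620638, plus strand: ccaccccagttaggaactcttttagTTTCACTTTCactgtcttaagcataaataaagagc
Gbp3, chr3:142559974-142560039, plus strand: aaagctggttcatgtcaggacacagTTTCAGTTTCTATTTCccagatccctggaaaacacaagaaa
Stat2, chr10:128270251-128270310, plus strand: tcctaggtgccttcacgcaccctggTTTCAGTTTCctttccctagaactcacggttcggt
Irgm1, chr11:48871421-48871475, minus strand: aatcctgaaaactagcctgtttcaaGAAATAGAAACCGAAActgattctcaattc
Ifit1, chr19:34640760-34640838, plus strand: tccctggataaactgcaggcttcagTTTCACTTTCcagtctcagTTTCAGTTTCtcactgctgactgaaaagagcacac
Rsad2, chr12:26456538-26456597, minus strand: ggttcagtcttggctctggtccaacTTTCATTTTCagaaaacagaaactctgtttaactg
In the Gbp3 promoter 2 overlapping cores began 45 bases before the start site, in Gbp2 1 core began at 59 bases, in Irgm1 2 overlapping cores began at 30 bases, and in Rsad2 1 core began at 120 bases. An ISRE core lay in 14 of the 29 members (48.3%), against 3.99% of 27025 genes with windows of the same length. The GAS motif TTCNNNGAA lay in 7 of the 29 (24.1%), against 9.55% of all genes, and 3 members held both, with an overlap of the motifs in 0 of the member windows. No ISRE core lay in the windows of Ifi47 or Isg20, and the core of Ifih1 lay after the start site. A match describes the letters only.

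Levels are log2 normalised intensities, on which a difference of 1 is a doubling of intensity plus an offset, and they are compared between cells for a gene, never between genes. The median deposited intensity was 23.4 to 41.3 units per array and the 75th percentile 135 to 156. Across genes, the correlation of replicate spleen arrays was 0.865 in IKDC, 0.939 in NK and 0.948 in CDC. The conventional dendritic cell list had a mean of 10.42 to 10.80 on the CDC arrays and 5.74 to 7.80 on the others. Within that list Itgax (CD11c) and H2-Aa, a class II chain, did not set the cell types apart in the same way. Itgax was at 11.89 and 12.37 in spleen CDC, 11.32 and 7.27 in NK and 11.03 and 11.24 in IKDC, and H2-Aa at 12.57 and 12.84, 10.89 and 6.62, and 12.01 and 10.91. NK array 1 was thus near IKDC for both genes and NK array 2 far below. The NK list had a mean of 11.44 to 12.29 on NK and IKDC arrays and 6.24 to 7.17 on CDC arrays. Before any result, the spleen arrays split by their number. On spleen arrays 1, Xist (the RNA of X inactivation) had levels of 6.02 to 6.36, and on spleen arrays 2 it reached 11.43 to 12.48. Eif2s3y, which is Y-linked, had 8.84 to 9.40 on arrays 1 and no more than 4.28 elsewhere. The lymph node arrays had Xist at 12.05 to 12.19. By these 2 sex markers, spleen arrays 1 had a male pattern, and spleen arrays 2 and the lymph node arrays had a female one. Markers of dividing cells had a mean of 9.41 to 10.54 on spleen arrays 1 and 7.48 to 8.19 on spleen arrays 2. Comparisons were therefore also fitted with the array number as a block.

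In spleen, 10 members differed between CDC and NK or IKDC, 3 of them higher and 7 lower than in CDC. Gbp2, Gbp3 and Ifi47, all interferon-inducible GTPases, were 3.17-fold to 6.20-fold higher in NK and in IKDC than in CDC. Oas2, Mx1, Isg20, Ifih1, Dhx58 and Usp18 were lower in both, and Stat2 was lower in NK. Against CDC, 9 of the 34 members differed in IKDC, 3 higher and 6 lower, where 10.3% of all genes tested were called (4.73% higher and 5.57% lower). In NK 10 members differed, 3 higher and 7 lower, where 13.5% of all genes were called (6.54% higher and 6.97% lower). The median difference over the 34 members was -0.25 in IKDC and -0.28 in NK, against 0.04 and 0.06 over all genes. It was -0.47 in IKDC without IKDC array 2, and in NK -0.46 without NK array 1 and -0.16 without NK array 2. The additive fit of cell type plus organ, over all 9 arrays, gave -0.16 in NK. The CDC arrays are common to the 2 comparisons, so their shared members are not separate evidence. With the array number as a block, Stat2 also passed in IKDC (adjusted p = 0.0289) and Samd9l also passed as higher in NK (adjusted p = 0.0264), with 17.4% and 21.1% of all genes called. The counts changed when arrays were left out. Without spleen CDC array 1 or array 2, 1 of the 9 calls in IKDC was left, and without NK array 2, 4 were left. In NK, 5 and 3 calls were left without CDC array 1 and 2, and 4 without NK array 1 or array 2. Every one of these members kept its direction in each of those fits. In bulk samples, fewer cells that express a gene and less of its RNA per cell cannot be told apart.

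**Figure D1:**
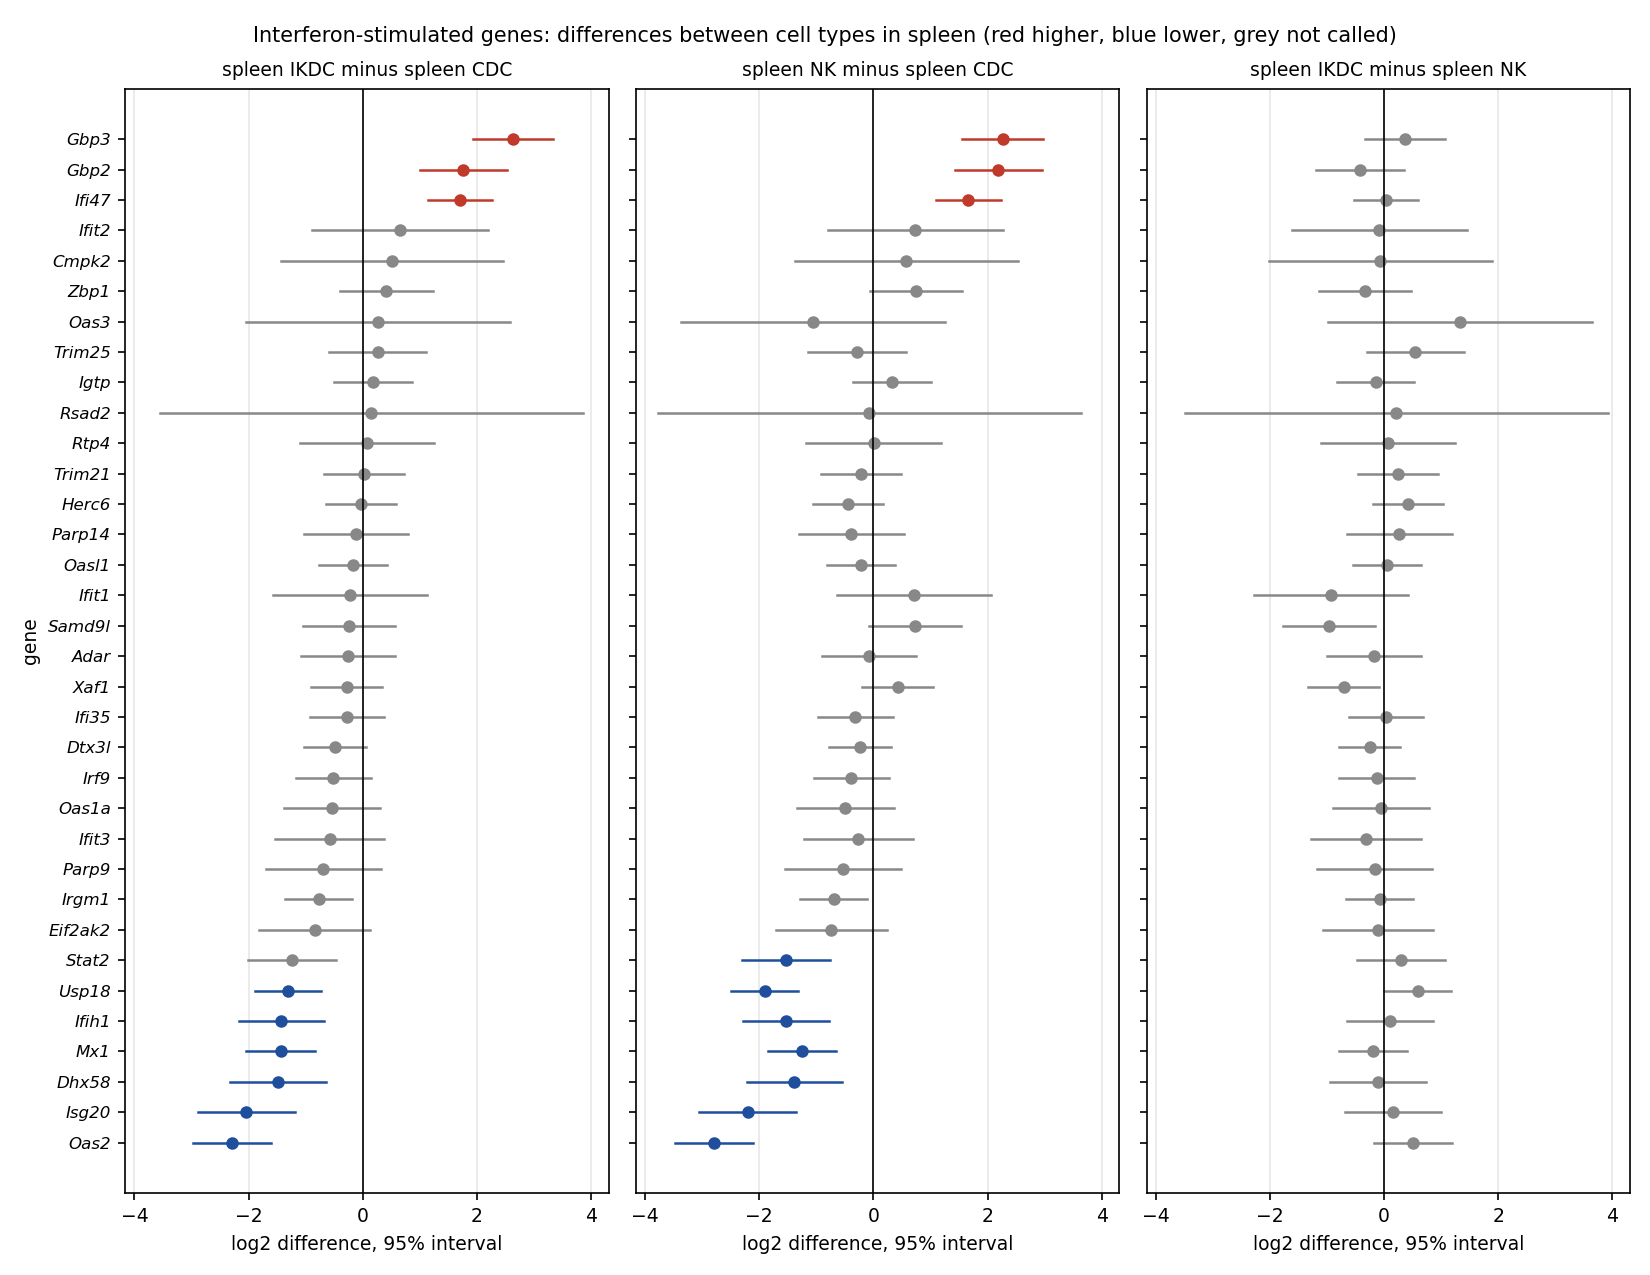
Differences between the cell types of the spleen for the 34 tested interferon-stimulated genes on the log2 scale, with the 95% interval from limma, in red for genes called higher, blue for genes called lower and grey for those not called. Gbp3, Gbp2 and Ifi47 stand to the right in both comparisons with CDC, Oas2 and Isg20 lie farthest to the left, and no gene is coloured between IKDC and NK.

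The interferon-inducible GTPases, which attack the vacuoles of intracellular pathogens, had 3 of 5 members called higher in each comparison and 0 lower. Over all genes, 4.73% were called higher in IKDC and 6.54% in NK, and 5.57% and 6.97% lower. These shares apply to each group of members below as well. With so few genes in a group, a single call describes that gene alone. Gbp3, a guanylate-binding protein, had spleen levels of 6.64 and 7.05 in CDC, 9.27 and 8.95 in NK and 9.28 and 9.68 in IKDC. Its lymph node levels were 7.33 in CDC, 9.29 in NK and 9.32 in IKDC, so every NK and IKDC array lay above every CDC array. The spleen difference from CDC was 2.63 ± 0.29 (SE) in IKDC, or 6.20-fold, and 2.26 ± 0.29 in NK, with adjusted p = 0.00329 and 0.00437 by limma.

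Gbp2, the neighbour of Gbp3 on chromosome 3, was at 7.36 and 6.88 in spleen CDC, 9.40 and 9.20 in NK and 9.18 and 8.59 in IKDC, and at 7.97, 9.62 and 9.26 in the same order in lymph node. The CDC arrays were again the 3 lowest, and the difference was 1.76 ± 0.32 in IKDC (adjusted p = 0.0178) and 2.18 ± 0.32 in NK (adjusted p = 0.00652). The second Gbp2 probe set gave 1.39 and 1.94. Ifi47, an immunity-related GTPase, was at 9.37 and 9.40 in spleen CDC, 10.84 and 11.26 in NK and 11.03 and 11.14 in IKDC. Its lymph node levels were 9.03, 11.66 and 11.44, so its CDC arrays were also the 3 lowest. Ifi47 differed from CDC by 1.70 ± 0.23 in IKDC (adjusted p = 0.00655) and 1.67 ± 0.23 in NK (adjusted p = 0.00573).

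The remaining 2 GTPases were not called. Igtp differed from CDC by 0.18 ± 0.28 in IKDC and 0.32 ± 0.28 in NK. Irgm1, a regulatory GTPase of the same family as Ifi47, was at 8.20 and 8.39 in spleen CDC against 7.53 and 7.67 in NK and 7.53 and 7.52 in IKDC. That difference of -0.77 ± 0.24 in IKDC and -0.70 ± 0.24 in NK did not pass the threshold (adjusted p = 0.111 and 0.127). In the additive fit of cell type plus organ Irgm1 was called lower in both comparisons.

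**Figure D2:**
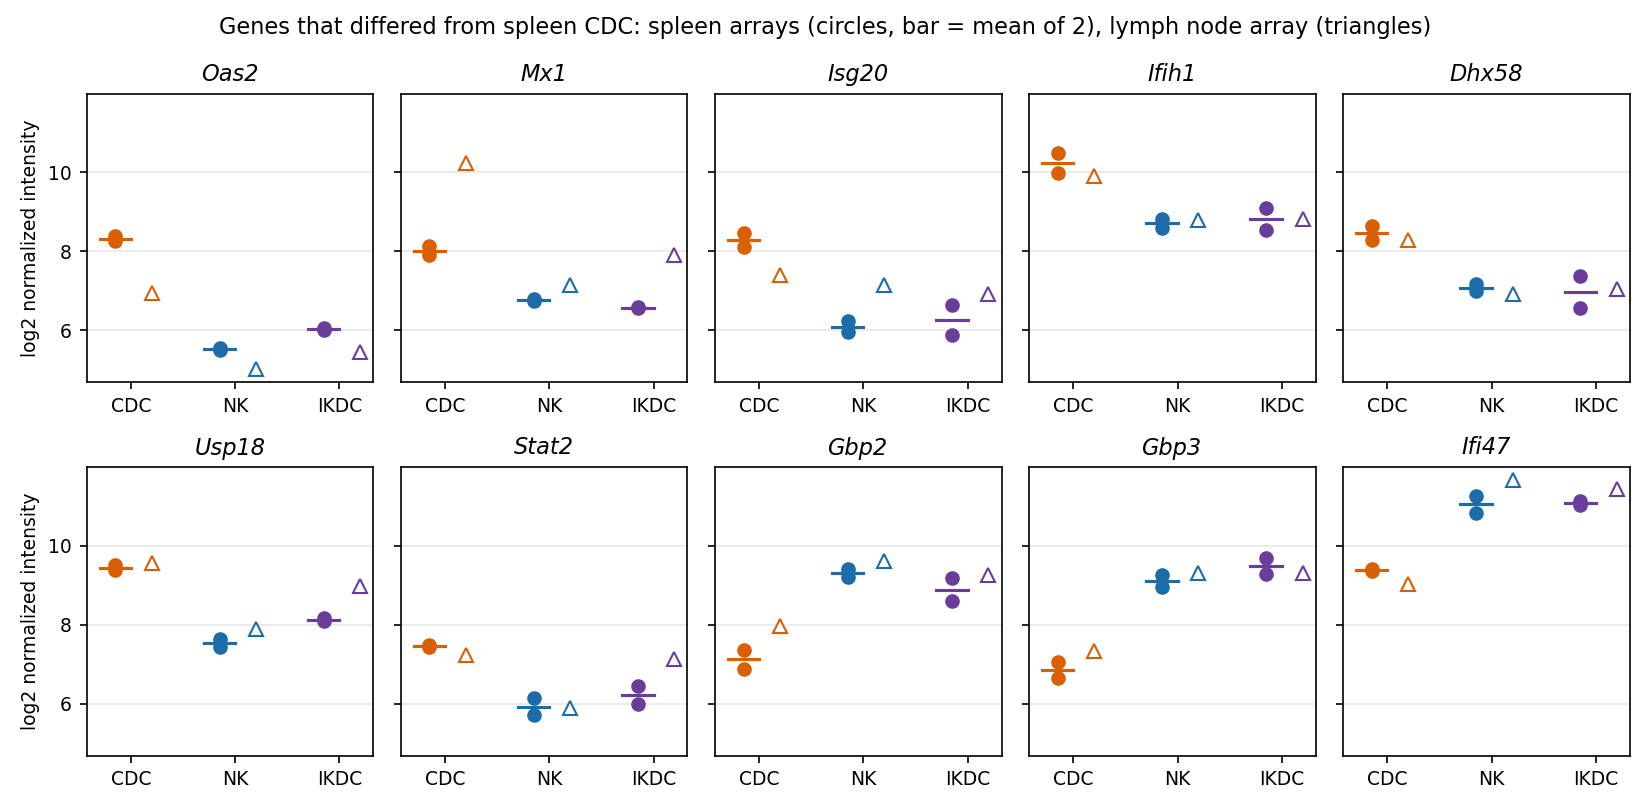
Log2 normalised intensity of the 10 members called against spleen CDC in at least 1 comparison. Circles are the 2 spleen arrays of each cell type with a bar at their mean, and triangles are the lymph node array. Gbp2, Gbp3 and Ifi47 are lowest in CDC, and the other 7 genes have their highest spleen levels in CDC.

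In the OAS family, whose enzymes make the oligoadenylates that activate RNase L, 1 of 4 tested members was lower and 0 were higher in each comparison. Oas2 was at 8.37 and 8.24 in spleen CDC, at 5.50 and 5.54 in NK and at 6.00 and 6.05 in IKDC. On the lymph node arrays it was at 6.94 in CDC, 5.01 in NK and 5.45 in IKDC, so CDC was highest in both organs. In spleen the difference from CDC was -2.28 ± 0.28 in IKDC (4.87-fold, adjusted p = 0.0048) and -2.79 ± 0.28 in NK (6.91-fold, adjusted p = 0.0017). The level filter lies at 5.31, so Oas2 in NK was close to it. Oas1a differed from CDC by -0.54 ± 0.35 in IKDC and Oasl1, a catalytically inactive relative, by -0.17 ± 0.25, and neither passed. Oasl2, not tested, was at 3.37 to 5.99 over the 9 arrays.

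Oas3 was the least even member of the family. It was at 6.94 and 6.95 in spleen CDC, 7.45 and 4.32 in NK, 7.75 and 6.67 in IKDC, and 4.56, 7.31 and 7.33 in lymph node CDC, NK and IKDC. NK array 2 and the lymph node CDC array thus stood alone below the level filter.

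Among the direct antiviral effectors 2 of 5 tested members were lower and 0 were higher in each comparison. Mx1 encodes a dynamin-like GTPase that blocks influenza virus in mice with an intact allele, which most laboratory strains lack. Its levels were 8.13 and 7.90 in spleen CDC, 6.73 and 6.79 in NK and 6.56 and 6.58 in IKDC. The lymph node levels were all higher than those of the same cell type in spleen, at 10.23 in CDC, 7.14 in NK and 7.89 in IKDC. In spleen Mx1 differed from CDC by -1.44 ± 0.25 in IKDC (adjusted p = 0.0158) and by -1.25 ± 0.25 in NK (adjusted p = 0.0216).

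Its paralogue Mx2, below the filter and not tested, was at 6.23 and 6.85 in spleen CDC and 6.70 in lymph node CDC, and at 3.96 to 4.28 on the spleen NK and IKDC arrays. It was called lower in both comparisons when no filter was set or when probe sets were averaged, settings under which Dhx58 and, in NK, Stat2 were no longer called. Isg20, an RNA exonuclease, was at 8.46 and 8.11 in spleen CDC, 5.96 and 6.22 in NK and 6.63 and 5.87 in IKDC. The difference was -2.04 ± 0.35 in IKDC (adjusted p = 0.0158) and -2.20 ± 0.35 in NK (adjusted p = 0.00949). In lymph node the 3 cell types lay closer, at 7.39, 7.14 and 6.92.

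Samd9l, which restricts poxviruses, was at 10.40 and 10.92 in spleen CDC, 11.08 and 11.70 in NK and 10.14 and 10.70 in IKDC. Rsad2, which encodes viperin, and Cmpk2, the gene beside it, differed between replicate arrays by more than between cell types and are taken up with the replicates.

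Of 5 nucleic acid sensors and editors, 2 were lower and 0 higher in each comparison. Ifih1 encodes MDA5, the sensor of long double-stranded RNA, and was at 9.97 and 10.49 in spleen CDC, 8.59 and 8.81 in NK and 8.54 and 9.08 in IKDC. The lymph node order was the same, with 9.90 in CDC, 8.78 in NK and 8.80 in IKDC. In spleen the difference from CDC was -1.42 ± 0.31 in IKDC (adjusted p = 0.0359) and -1.53 ± 0.31 in NK (adjusted p = 0.0227). Dhx58, which encodes the MDA5 cofactor LGP2, was at 8.27 and 8.63 in CDC, 6.98 and 7.15 in NK and 6.56 and 7.37 in IKDC, and at 8.29, 6.91 and 7.04 in lymph node. Every CDC array lay above every NK and IKDC array. The Dhx58 difference of -1.49 ± 0.35 in IKDC (adjusted p = 0.0458) and -1.38 ± 0.35 in NK (adjusted p = 0.0485) lay just past the threshold. Dhx58 was not called in either comparison with no filter, with averaged probe sets or with no trend, nor in IKDC with values as deposited. Ifih1 was not called in IKDC with no filter. Both other Dhx58 probe sets were dimmer, and gave -0.88 and 0.14 in IKDC and -0.45 and -0.15 in NK. The latter of the probe sets was near background.

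The other sensors were not called. Eif2ak2, which encodes the RNA-activated kinase PKR, differed from CDC by -0.84 ± 0.40 in IKDC and -0.74 ± 0.40 in NK, and Zbp1, a sensor of left-handed nucleic acids, by 0.41 ± 0.34 and 0.75 ± 0.34. Adar, the adenosine-to-inosine editor, differed by -0.25 ± 0.34 and -0.08 ± 0.34 by its brightest probe set. Another Adar probe set gave -1.14 and -1.42, so its probe sets disagreed. A second, dimmer Zbp1 probe set gave 1.88 in IKDC and 0.68 in NK.

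In the ISG15 system, which attaches and removes the modifier ISG15, 1 of 3 tested members was lower in each comparison and 0 were higher. Usp18 removes ISG15 from proteins and dampens signalling at the type I receptor. It was at 9.50 and 9.37 in spleen CDC, at 7.64 and 7.42 in NK and at 8.08 and 8.17 in IKDC, and at 9.56, 7.88 and 8.99 in lymph node. The IKDC levels thus lay between those of NK and CDC in both organs. In spleen, however, IKDC and NK were not called different (adjusted p = 0.859 by limma), and each lymph node level is a single array. The spleen difference from CDC was -1.31 ± 0.24 in IKDC (adjusted p = 0.0197) and -1.90 ± 0.24 in NK (adjusted p = 0.0041). The ligases Herc6 and Trim25 differed from CDC in IKDC by -0.02 ± 0.26 and 0.26 ± 0.36 and were not called.

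The signal transducers Stat2 and Irf9 are themselves interferon-inducible. Stat2 was at 7.43 and 7.47 in spleen CDC, 5.71 and 6.13 in NK, 5.98 and 6.45 in IKDC, and 7.22, 5.89 and 7.12 in lymph node. Spleen NK and IKDC did not overlap spleen CDC, but lymph node IKDC lay near lymph node CDC. Stat2 was lower in NK, with a difference of -1.53 ± 0.32 (adjusted p = 0.0256), and differed in IKDC by -1.24 ± 0.32 (adjusted p = 0.0629). A second, dimmer Stat2 probe set gave smaller differences, -0.78 in NK and -0.64 in IKDC. Irf9 differed by -0.39 ± 0.27 and -0.52 ± 0.27 and was not called.

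Of the IFIT family, RNA-binding proteins that block translation of foreign RNA, 0 of 3 members were called against CDC. Ifit1 was at 6.77 and 6.46 in spleen CDC, 6.53 and 8.12 in NK, 6.03 and 6.76 in IKDC, and 5.30, 7.46 and 7.54 in lymph node. Ifit3 was at 7.74 and 8.00, 7.24 and 7.99, and 6.88 and 7.70 in spleen, and at 5.65, 7.75 and 7.89 in lymph node. For both genes the lymph node CDC array was the lowest of the 9. In spleen, IKDC overlapped CDC for Ifit1 and lay below it for Ifit3, where the difference of -0.58 was not called. Among the ubiquitin ligase and ADP-ribosylation genes, Trim21, Parp9, Parp14 and Dtx3l, 0 of 4 were called, with differences from CDC of -0.69 to 0.03 in IKDC. Ifi35, Xaf1 and Rtp4 differed by -0.28, -0.28 and 0.08 in IKDC and by -0.31, 0.43 and 0.00 in NK, with 0 of 3 called.

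On the lymph node arrays, the differences from CDC had the sign of the spleen in 9 of the 9 members called in IKDC and in 10 of the 10 called in NK. The same held for 93.6% and 95.9% of all genes called. These lymph node pairs are single arrays and carry no test of their own.

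Other cell types were followed with marker lists. Macrophage and monocyte markers had a mean of 8.75 and 8.94 in spleen CDC, 5.74 and 7.62 in NK and 7.34 and 8.53 in IKDC. Of these, 2 of 7, Cd68 and Adgre1, were called lower in each comparison. Csf1r and Lyz2 were lower in IKDC (-1.72 ± 0.83 and -1.88 ± 1.12) without being called. C1qa, C1qb and Vcam1 went the other way in IKDC (1.88 ± 0.85, 1.47 ± 0.53 and 0.74 ± 0.80), also without being called. T cell markers had a mean of 4.68 and 4.43 in spleen CDC, 6.12 and 6.27 in NK and 6.38 and 6.76 in IKDC. Of 4 tested, 3 were higher and 1 lower in each comparison, where 10.3% and 13.5% of all genes were called in IKDC and NK. B cell markers had a mean of 4.76 to 6.08 over the 9 arrays and granulocyte markers one of 4.13 to 5.68. The part of these cells in the differences from CDC was not tested.

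**Figure D3:**
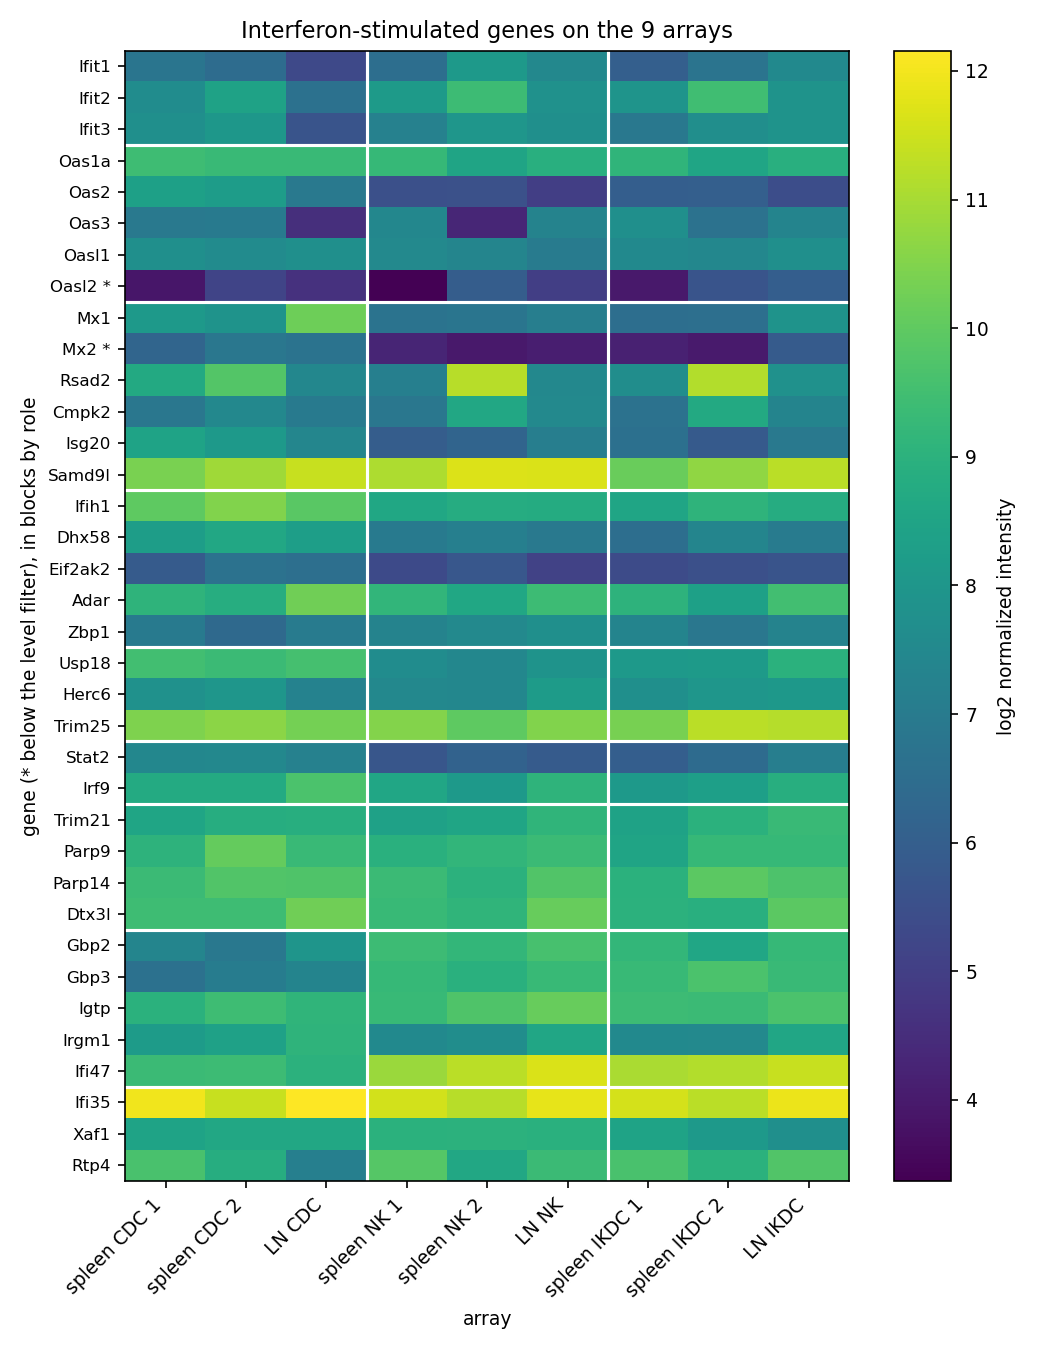
Log2 normalised intensity of the 36 measured interferon-stimulated genes on the 9 arrays, in blocks by role, with the arrays ordered by cell type. Oasl2 and Mx2 (asterisk) lie below the level filter. Rsad2 is bright on NK array 2 and IKDC array 2 and Mx1 on the lymph node CDC array.

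Between spleen IKDC and spleen NK, 0 of the 34 members were called by limma, as were 0% of all genes. At an unadjusted p under 0.05 there were 3 of 34 members, Samd9l, Usp18 and Xaf1, against 5.5% of all genes. The smallest adjusted p among the members was 0.859. Samd9l differed by -0.97 ± 0.33 (95% interval -1.78 to -0.17), its NK arrays of 11.08 and 11.70 lying above the IKDC arrays of 10.14 and 10.70. The largest difference, 1.33 ± 0.96 for Oas3, rested on NK array 2 and was -0.23 without it. For the 10 members that separated either cell type from CDC, IKDC and NK differed by -0.42 to 0.59. The 95% interval lay within 1 of 0, that is within a doubling either way, for 13 members, among them Mx1, Ifih1, Dhx58 and Ifi47. For the other 21 the arrays cannot exclude a larger difference in at least 1 direction.

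Comparing lymph node with spleen, 0 of the 34 members were called in CDC, NK or IKDC, where 0.0275%, 0% and 0% of all genes were called. Each lymph node group was 1 array, taken to vary like the spleen arrays. By the sex markers, all lymph node arrays had a female pattern, whereas each spleen mean joined a male-pattern and a female-pattern array. Organ, sex pattern and array number thus cannot be fully told apart in these comparisons. At an unadjusted p under 0.05, limma gave 8 members in CDC, 4 in NK and 4 in IKDC, against 12.7%, 5.75% and 6.82% of all genes. The median difference over the 34 members was -0.05 in CDC, 0.28 in NK and 0.36 in IKDC, against -0.02, -0.05 and 0.01 over all genes. With a common 75th percentile it was -0.17, 0.12 and 0.19, against -0.04, -0.15 and -0.04 over all genes. In CDC it changed sign with the setting, from -0.16 without spleen array 1 to 0.06 without spleen array 2. In IKDC 21 members lay above both spleen arrays and 3 below both, where 30.4% and 30.1% of all genes did so. In NK the counts were 17 and 6, against 31.4% and 39.9%, and in CDC 13 and 13, against 36.9% and 40.1%. On the lymph node IKDC array the plasmacytoid dendritic cell list had a mean of 9.87, against 6.17 to 7.80 on the others, with Siglech at 10.78 and Ccr9 at 11.78. On the lymph node NK array the T cell list had a mean of 8.16, against 6.12 and 6.27 in spleen NK, with Cd3e at 8.15 against 5.04 and 5.85. On the lymph node CDC array the macrophage and monocyte list had a mean of 9.96, against 8.75 and 8.94 in spleen CDC. The part of such cells in the organ differences was not tested.

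Mx1 had the largest rise in the mean over the 3 cell types. It was higher in lymph node by 2.21 ± 0.31 in CDC, 0.38 ± 0.31 in NK and 1.32 ± 0.31 in IKDC. The mean of 1.31 ± 0.18 was higher in 3 of 3 cell types and lay just short of the threshold (adjusted p = 0.0555), in a comparison where 0.376% of all genes were called. With the array number as a block and the lymph node arrays counted with spleen arrays 2 or with spleen arrays 1, Mx1 passed, at adjusted p = 0.0241 and 0.021, where 5.71% and 4.25% of all genes were called. Counting the lymph node arrays with spleen arrays 1 puts a female pattern and a male pattern in the same block. The difference between the rise of Mx1 in NK and in CDC, -1.84 ± 0.43, did not pass (adjusted p = 0.721 by limma).

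Above both spleen arrays in all 3 cell types were 9 members, Mx1, Adar, Usp18, Irf9, Trim21, Dtx3l, Gbp2, Irgm1 and Ifi35, where 9.3% of all genes were. Below in all 3 were 2, where 10.4% of all genes were. For Adar, Trim21, Dtx3l and Ifi35, another probe set did not lie above both spleen arrays in all 3 cell types. The list thus depends on the probe set chosen. By its brightest probe set Dtx3l, an E3 ligase that pairs with Parp9, was at 10.24, 10.13 and 9.95 in lymph node CDC, NK and IKDC. In spleen that probe set was at 8.91 to 9.45. A second Dtx3l probe set was at 9.31, 9.59 and 8.66 in lymph node. It was at 9.05 and 9.36 in spleen CDC, 8.67 and 8.61 in NK and 8.77 and 10.28 in IKDC. The second probe set thus exceeded both spleen arrays in NK alone. Irgm1 was at 9.08, 8.56 and 8.57 in lymph node, and each value exceeded both spleen values of its cell type. Their mean rises of 0.91 ± 0.16 and 0.93 ± 0.17 had adjusted p = 0.0758 and 0.0857, and both passed with either block (adjusted p = 0.0323 and 0.0387 for Dtx3l, 0.0468 and 0.0368 for Irgm1).

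Some members were low on the lymph node CDC array. Ifit3 differed there from spleen CDC by -2.23 ± 0.49 (adjusted p = 0.178) and Oas3 by -2.38 ± 1.17 (adjusted p = 0.465). Rtp4, a chaperone of receptor transport, was at 7.15 on that array and at 9.63 and 8.85 in spleen CDC, a difference of -2.09 ± 0.60 (adjusted p = 0.265). With the lymph node arrays in a block with spleen arrays 2 or with spleen arrays 1, Rtp4 passed as lower (adjusted p = 0.0471 and 0.0312) and Ifit3 passed with the first block alone (adjusted p = 0.0299), where 2.47% and 1.12% of all genes were called. In NK and IKDC none of these genes had so large a difference downward, and lymph node against spleen was 0.12 ± 0.60 for Rtp4 in NK and 0.46 ± 0.60 in IKDC. The test of unequal organ differences called 0 members in each of its 3 comparisons, with 4, 5 and 0 at an unadjusted p under 0.05, against 5.63%, 5.31% and 2.77% of all genes. For Ifit3 the organ difference in IKDC exceeded that in CDC by 2.82 ± 0.69 (adjusted p = 0.521).

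**Figure D4:**
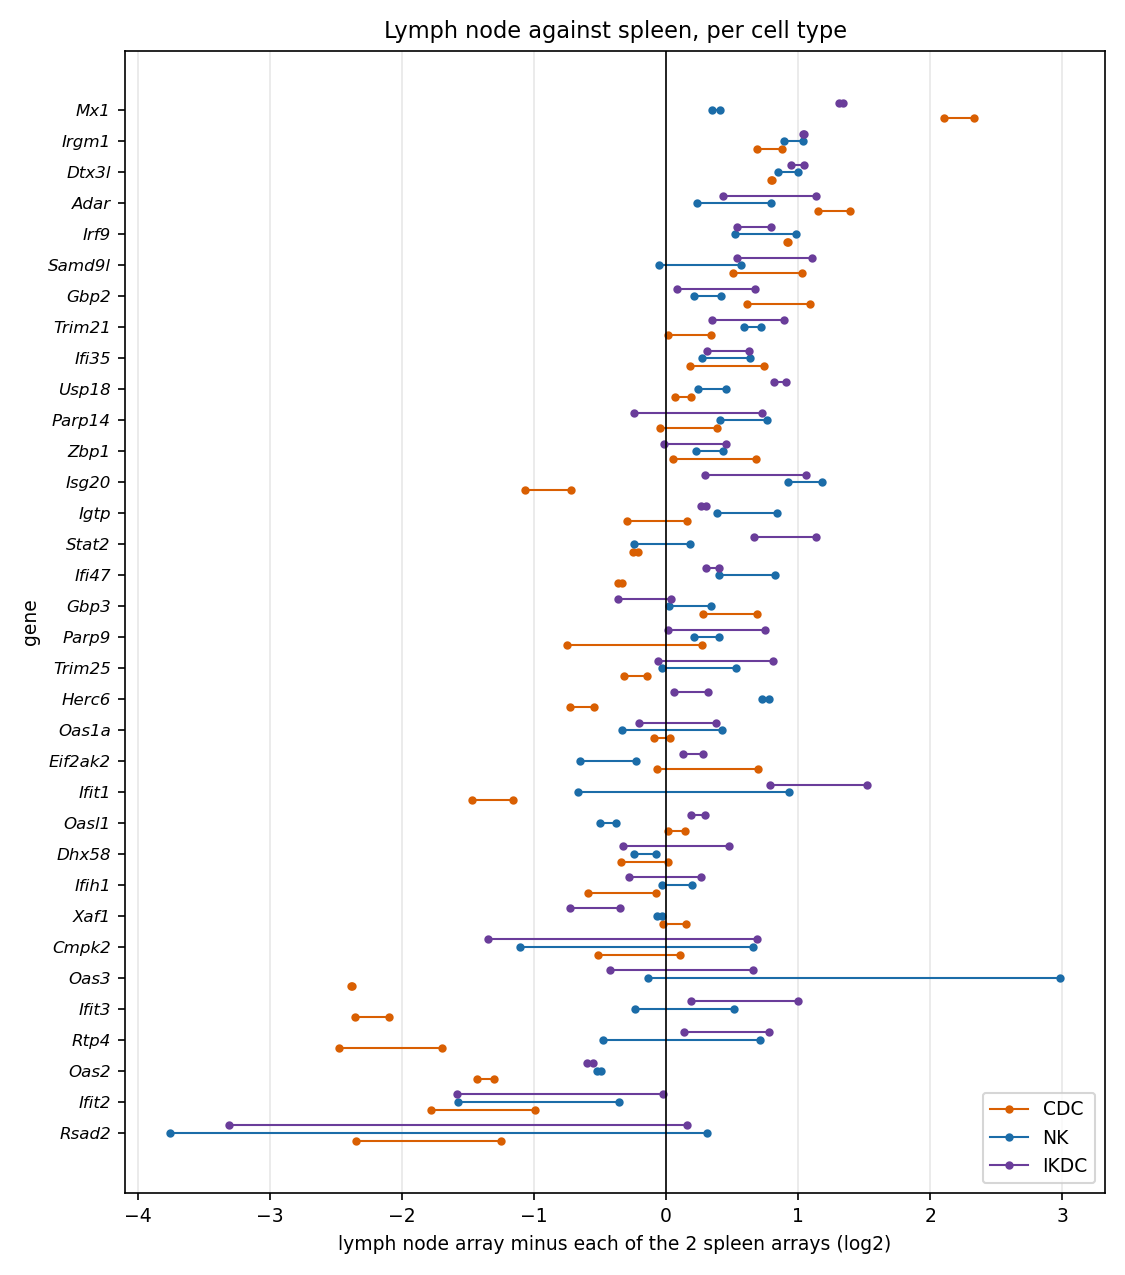
Lymph node array minus each of the 2 spleen arrays of the same cell type, on the log2 scale, for the 34 tested members. The 2 points of a cell type are joined. Both points lie right of 0 in all 3 cell types for 9 genes, among which Mx1 in CDC lies farthest to the right. Of all points Oas3 in NK against spleen array 2 lies farthest right, at 2.98. Of the joined pairs, that of Rsad2 in NK is the widest.

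The spread between replicate arrays was itself uneven among the members. Rsad2 was at 8.71 and 9.80 in spleen CDC, 7.15 and 11.22 in NK and 7.66 and 11.14 in IKDC, and at 7.45, 7.46 and 7.83 in lymph node. Array 2 exceeded array 1 by 1.09, 4.07 and 3.47, and all 3 probe sets of Rsad2 showed array 2 above array 1 in all 3 cell types. In deposited intensity it was 126 and 2383 units in NK and 193 and 1991 in IKDC. The lymph node arrays had Rsad2 near the level of spleen arrays 1 in NK and IKDC.

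Cmpk2, whose promoter at chr12:26468965-26469264 lies next to that of Rsad2 at chr12:26456403-26456702, was at 6.86 and 7.48 in spleen CDC, 6.86 and 8.63 in NK and 6.67 and 8.70 in IKDC. Its lymph node levels were 6.96, 7.52 and 7.35, below spleen array 2 in NK and IKDC. Ifit2 was at 7.64 and 8.44, 8.17 and 9.39, and 7.92 and 9.48 in spleen, with lymph node levels of 6.66, 7.81 and 7.89. Rsad2, Cmpk2 and Ifit2 were thus higher on array 2 in all 3 cell types.

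Spleen arrays 2 were above arrays 1 in all 3 cell types for 12 of the 34 members and below for 7, against 24% and 23.2% of all genes. Replicates differed by over 2-fold for 2 members in CDC, 6 in NK and 4 in IKDC, against 8.23%, 8.26% and 19.7% of all genes. Oas3 differed the other way, by -3.12 between NK array 2 and array 1. The 10 members called against CDC had replicate differences of at most 0.81 in size. The test favours genes with a small spread, so this is no separate support for the calls. With its wide replicate spread, Rsad2 in IKDC against CDC had an interval of -3.55 to 3.85, so the arrays do not show whether it differed. Spleen arrays 1 and 2 also differed in Xist, Eif2s3y and the markers of dividing cells. The part of these in the spread of the members was not tested.

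**Figure D5:**
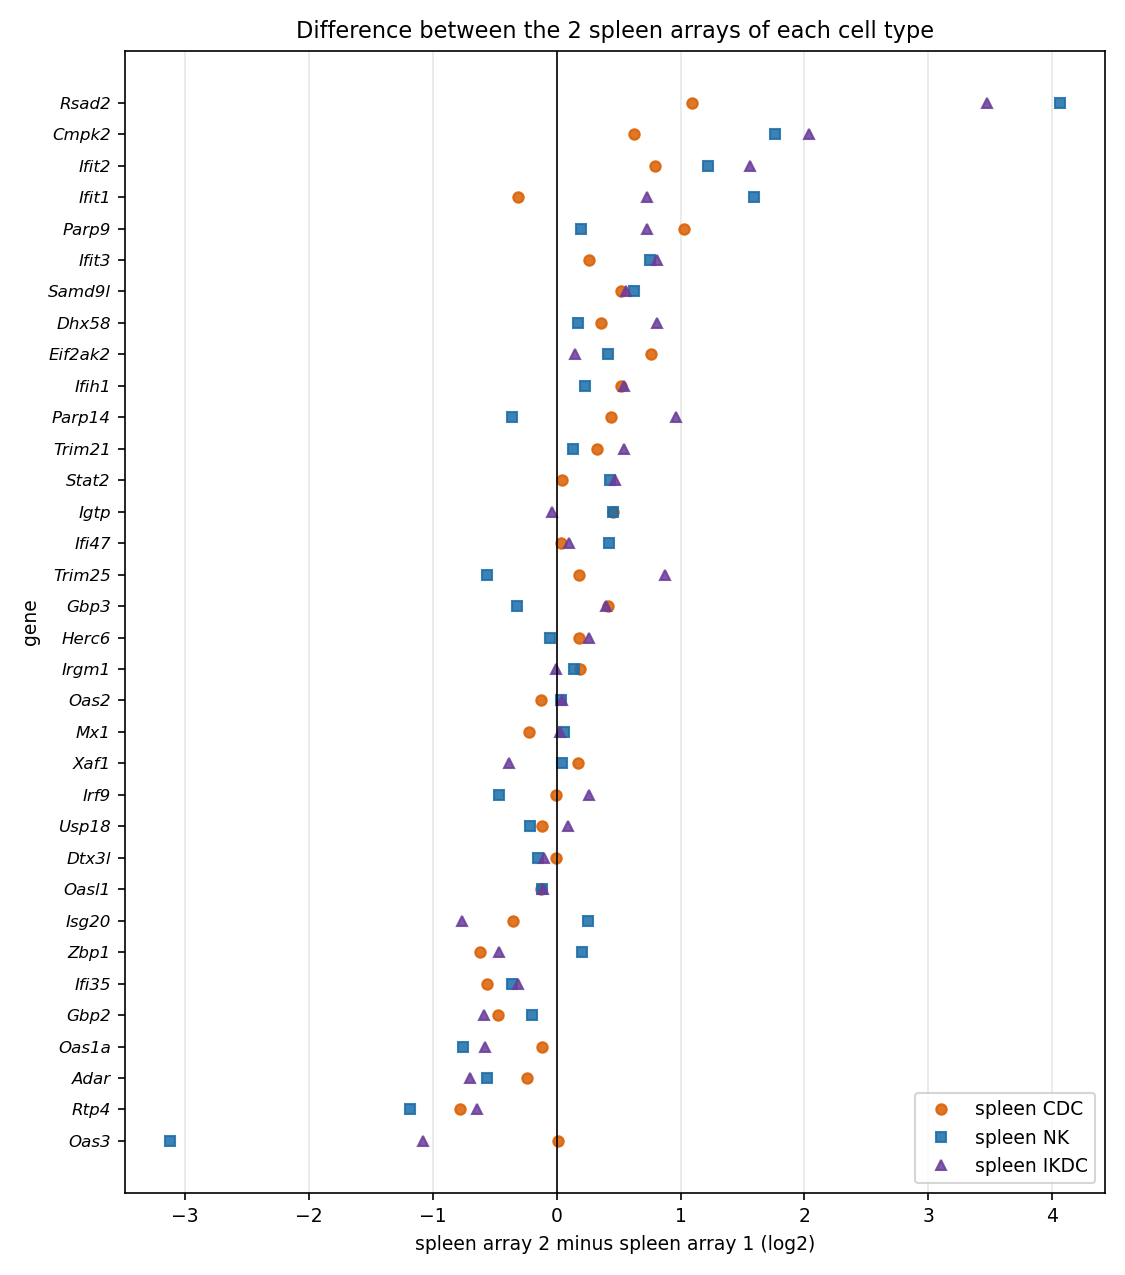
Spleen array 2 minus spleen array 1 on the log2 scale for each cell type and each of the 34 tested members. Rsad2, Cmpk2 and Ifit2 lie to the right in all 3 cell types, and Oas3 in NK lies farthest to the left.

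The genes upstream of the members were examined as lists. Of 18 tested receptor and signalling genes, 1 was higher and 4 were lower in IKDC than in CDC, and 2 were higher and 5 lower in NK, where 10.3% and 13.5% of all genes were called. Socs3, a feedback inhibitor of JAK signalling, was higher by 3.90 ± 0.47 in IKDC and 3.88 ± 0.47 in NK (adjusted p = 0.00423 and 0.00331). Ifngr2, the signalling chain of the interferon gamma receptor, was at 7.37 and 7.29 in spleen CDC, at 5.62 and 5.39 in NK and at 5.67 and 5.29 in IKDC. Its kinase Jak2 was at 11.21 and 11.26 in CDC and at 9.61 to 9.79 in spleen NK and IKDC. Both were lower in IKDC, with differences of -1.85 ± 0.31 for Ifngr2 (adjusted p = 0.0143) and -1.57 ± 0.21 for Jak2 (adjusted p = 0.00651). Irf5, a transcription factor of myeloid cells, and Ptpn6, the phosphatase SHP-1, were also lower, with differences of -2.83 ± 0.27 and -1.49 ± 0.28. Irf1 passed as higher in NK (1.45 ± 0.30) and differed by 1.11 ± 0.30 in IKDC. Irf4 passed as lower in NK, at 5.51 and 3.79 against 8.78 and 9.56 in spleen CDC, and differed by -2.08 ± 0.61 in IKDC, and the difference between IKDC and NK did not pass for either gene.

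Of 11 tested sensors and adaptors upstream of interferon, 1 was higher and 3 were lower in each comparison, where 10.3% and 13.5% of all genes were called in IKDC and NK. Tlr3, the endosomal receptor for double-stranded RNA, was at 10.09 and 10.49 in spleen CDC and at 4.62 to 5.64 on the spleen NK and IKDC arrays. Unc93b1, which carries these receptors to endosomes, was lower in IKDC by a difference of -3.03 ± 0.24. Tlr7, the receptor for single-stranded RNA, was also called lower, at 6.96 and 7.99 in spleen CDC and at 4.93 and 5.42 in IKDC, near or below the filter. Ikbke, a kinase that activates interferon regulatory factors, was called higher in IKDC (adjusted p = 0.00136) and was at 7.75 and 7.91 there, against 3.07 and 3.40 in spleen CDC. Those CDC levels lie far below the level filter, so no size is given for the difference.

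Of 4 interferon genes, Ifng alone was tested. It was at 5.88 and 4.70 in spleen CDC, 11.80 and 12.15 in NK, 11.18 and 11.19 in IKDC, and 5.31, 11.08 and 9.26 in lymph node. NK and IKDC thus lay far above CDC in both organs, and both were called higher in spleen (adjusted p = 0.00128 in IKDC and 0.000577 in NK). The CDC levels were near or below the level filter, so no size is given. Ifnb1 was at 4.19 to 5.15, Ifna4 at 2.90 to 3.45 and Ifna2 at 3.47 to 4.51 over the 9 arrays, all below the level filter.

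Of 26 tested further interferon-inducible genes outside the 38, 2 were higher and 3 lower in IKDC, and 4 higher and 5 lower in NK, where 10.3% and 13.5% of all genes were called. Gbp7 was higher by 3.12 ± 0.26 in IKDC and 3.44 ± 0.26 in NK, and Gbp6 by 2.95 ± 0.36 and 1.99 ± 0.36. This adds 2 guanylate-binding proteins to those higher in both. The GTPase genes Irgm2 and Iigp1 of the same list were not called. They differed by 0.19 and 0.53 in IKDC and by -0.20 and 0.13 in NK. Lower in IKDC were Phf11d (-2.06 ± 0.23), Ly6e (-2.09 ± 0.45) and Ifitm2 (-3.83 ± 0.85), which blocks viral entry. In NK, Sp100 (1.49 ± 0.28) and Epsti1 (1.27 ± 0.28) were also called higher. Called lower in NK were Phf11d, Ly6e, Ifitm3 (-3.16 ± 0.78), Tor3a (-1.39 ± 0.34) and Cxcl9. Cxcl9 was at 10.20 and 10.29 in spleen CDC and at 3.46 and 6.81 in NK. The median of the list was -0.21 in IKDC and -0.25 in NK.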

How the data were processed

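RNA from 9 sorted cell samples was taken up in TRIzol, cleaned on RNeasy columns and labelled from 6 µg of total RNA for Affymetrix arrays, per the labels' protocols. The deposited values are linear intensity per probe set, scaled by the authors (software not given in the sources used here), so that the mean without the lowest and highest 2% was 150.001 on every array. Of 45101 probe sets, 64 controls were dropped, 34945 carried 1 gene symbol by the platform annotation, and each gene took its probe set with the highest mean. After an offset of 6.49 units (the 20th percentile of all values), log2 values were quantile normalised, and genes under the 40th percentile of mean level (5.31) were not tested. Limma 3.58.1 in R 4.3.3 (lmFit, eBayes with trend, 6 groups) had 3 residual and 3.44 prior degrees of freedom. P-values are two-sided, adjusted by Benjamini-Hochberg over 10916 genes, with a threshold of 0.05, and the code was tested on simulated data. The number of arrays limits the precision. Promoter sequences are RefSeq's on GRCm38.p6.

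The members, lists and tests were chosen with earlier results of these data known. Per-array values are given for members called in a comparison, and for the 2 largest differences where fewer than 2 were called. Other genes of the pathway were named when called or by largest difference. Members taken up beyond that (Irgm1, Ifit1, Ifit2, Cmpk2, Dtx3l, Rtp4, Mx2) were chosen after their values were seen. So were Irgm2, Iigp1, the markers Itgax, H2-Aa and Cd3e, and the macrophage and monocyte markers given by name. Alternatives were values as deposited, a common 75th percentile, an offset of 32, other filters, averaged probe sets, no trend, spleen arrays alone, an additive fit, the array number as a block, and leaving out each spleen array.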

Additional observations from a re-analysis of the deposited data

How the results depend on the processing

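Every member called against spleen CDC kept its direction under each alternative in which it was tested, but some calls were lost. Dhx58 lost its call in IKDC with values as deposited, no filter, averaged probe sets and no trend, and in NK with the latter 3 settings. Ifih1 lost it in IKDC with no filter, and Stat2 in NK with no filter and with averaged probe sets. Irgm1 was called lower in both comparisons in the additive fit. The number of members called was 1 to 9 in IKDC and 3 to 10 in NK when each spleen array was left out in turn. The labels do not say that array numbers pair samples. Same-numbered arrays did deviate alike across 10916 genes, with r of 0.412 (CDC with NK), 0.485 (NK with IKDC) and 0.529 (IKDC with CDC). The replicate block, with spleen arrays alone, gave 10 members in IKDC and 11 in NK, and 0 between IKDC and NK. For lymph node against spleen CDC, the block gave 4 members with the lymph node arrays counted with spleen arrays 2 (Mx1 higher, Ifit2, Ifit3 and Rtp4 lower) and 2 with spleen arrays 1 (Mx1 higher, Rtp4 lower). For the mean over the 3 cell types it gave 7 (Mx1, Adar, Dtx3l, Irgm1 and Ifi35 higher, Ifit2 and Rsad2 lower) and 5 (Mx1, Samd9l, Dtx3l and Irgm1 higher, Rtp4 lower). In that mean 1 member, Mx1, was called with values as deposited, with an offset of 32, with a filter at the 60th percentile and with averaged probe sets, and 0 to 1 when an array was left out. The cause was not tested. Over all genes, the count of calls ran from 360 to 1902 in IKDC and from 515 to 2404 in NK over the alternatives, from 0 to 270 for lymph node CDC, 0 to 14 for lymph node NK, 0 to 200 for lymph node IKDC and 0 to 623 for the organ mean, against 1124, 1475, 3, 0, 0 and 41. Without NK array 2, Rsad2 in lymph node against spleen NK was 0.31 and Oas3 was -0.14, against -1.72 and 1.42. Rsad2 in lymph node IKDC was 0.16 without IKDC array 2, against -1.58. Over the alternatives, the members' median ran from -0.17 to 0.07 in lymph node against spleen CDC, from 0.12 to 0.37 in NK and from 0.19 to 0.42 in IKDC.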
